A study of Mus musculus with 2 samples.

Results

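The enzymes that activate and inactivate corticosteroids were described in the adrenal gland as a set of 9 genes, chosen by name. They were Hsd11b1, Hsd11b2, H6pd, Srd5a1, Srd5a2, Srd5a3, Akr1d1, Akr1c14 and Sult1e1. All 9 symbols were found among the 55536 annotated genes of the tables, and all 9 passed a filter of a mean of at least 10 expected counts, as 17666 genes did. The total RNA came from adrenal glands of adult females of a 5xFAD and CAST cross, aged 8 to 10 months, and 300 ng went into each library. There was 1 group, with 2 replicate libraries called mouse 2 and mouse 1 by their labelled numbers. The 5xFAD strain is a transgenic Alzheimer's disease model whose human transgenes are driven by the neuronal Thy1 promoter, and CAST is a wild-derived strain. The libraries have separate sample identifiers and replicate numbers but the same donor identifier, so they may not be from separate animals, and the spread between them may be technical. Transgene carriage was not checked in either library.

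The adrenal cortex makes corticosterone, the main glucocorticoid of the mouse, and aldosterone. In target tissues the action of these hormones is set by enzymes that switch the steroid between active and inactive forms. Hsd11b1 reduces inert 11-keto steroids back to active glucocorticoid inside the endoplasmic reticulum, using NADPH that H6pd makes there from glucose 6-phosphate. Hsd11b2 runs the opposite oxidation and guards the mineralocorticoid receptor in kidney tubules. The steroid reductases Srd5a1, Srd5a2 and Akr1d1 saturate the A-ring of the steroid, the first pair in the alpha and Akr1d1 in the beta configuration. Akr1c14 reduces the 3-keto group of the products, and Sult1e1 sulfonates estrogens. Srd5a3 belongs to the Srd5a family by sequence, but its best known role is the reduction of polyprenol to dolichol for protein glycosylation.

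The tables held 32192201 expected counts in genes in mouse 2 and 36558609 in mouse 1. Levels are given as deposited TPM (transcript abundance per length, scaled to a fixed sum), with mean ± SD across the pair of libraries (n = 2). All 8 cortex markers and all 6 medulla markers reached 1 TPM in both mice. The cortex list was led by Star at 5434 ± 435 TPM, Hsd3b1 at 5386 ± 407 TPM and Cyp21a1 at 4989 ± 192 TPM, and the medulla list by Chga at 727 ± 34.1 TPM, Chgb at 641 ± 21.02 TPM and Pnmt at 258 ± 42.3 TPM. Macrophage markers ranged from 1.34 to 53.7 TPM, led by Lyz2 and C1qa, and 8 of 8 reached 1 TPM. Endothelial markers ranged from 1.77 to 60.6 TPM, led by Plvap and Emcn, and capsule and fibroblast markers from 4.59 to 51.2 TPM, led by Mgp and Dcn, with 8 of 8 reaching 1 TPM in each list. In this bulk tissue, fewer cells of a type and less RNA per cell cannot be told apart.

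Sequence of the most abundant member is shown first, because 2 aldo-keto reductases of the set stood far apart in level. Akr1d1 and Akr1c14 share a fold, and 52.8% of 322 aligned codons of Akr1d1-201 and Akr1c14-201 translated to the same residue. As background, the catalytic tetrad of this family carries a histidine in Akr1c enzymes, and a glutamate in its place is the hallmark of the 5-beta-reductase. The windows below are 63 coding bases of each transcript on the plus strand of GRCm38 (GENCODE M21). Each lies within 1 exon, at chr6:37536083-37536145 for Akr1d1 and chr13:4065379-4065441 for Akr1c14. Capitals mark the tetrad codon at the aligned position, GAA for glutamate in Akr1d1-201 and CAT for histidine in Akr1c14-201. The coding sequences run to 325 and 323 codons.
Akr1d1: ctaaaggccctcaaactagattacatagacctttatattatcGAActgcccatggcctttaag
Akr1c14: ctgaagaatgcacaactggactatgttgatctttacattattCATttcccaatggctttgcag

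RefSeq promoter windows (GRCm38.p6, from 250 bases before to 50 bases after the start) were found for 8 of the 9 genes, all but Hsd11b2. They are shown for Akr1d1, H6pd and Hsd11b1, where the transcript tables bear on the start that was used. Akr1d1-201 begins at the RefSeq start, at position 37530173 of chromosome 6. For H6pd, transcript H6pd-202 begins near it and H6pd-201 lies upstream. For Hsd11b1, the window lies within the first exon of Hsd11b1-201, while the leading transcript began far upstream. The Akr1d1 window is chr6:37529923-37530222 on the plus strand, the H6pd window chr4:150003187-150003486 on the minus strand and the Hsd11b1 window chr1:193242311-193242610 on the minus strand. Capitals mark AGGTCA or its reverse complement TGACCT, the half-site core bound by Nr5a1 and other nuclear receptors. Both strands were searched.
Akr1d1: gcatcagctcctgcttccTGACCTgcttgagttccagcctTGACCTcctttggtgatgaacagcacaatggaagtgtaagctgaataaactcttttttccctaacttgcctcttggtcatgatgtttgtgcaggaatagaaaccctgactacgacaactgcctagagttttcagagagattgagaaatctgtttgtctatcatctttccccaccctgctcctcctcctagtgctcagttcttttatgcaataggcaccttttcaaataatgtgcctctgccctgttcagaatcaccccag
H6pd: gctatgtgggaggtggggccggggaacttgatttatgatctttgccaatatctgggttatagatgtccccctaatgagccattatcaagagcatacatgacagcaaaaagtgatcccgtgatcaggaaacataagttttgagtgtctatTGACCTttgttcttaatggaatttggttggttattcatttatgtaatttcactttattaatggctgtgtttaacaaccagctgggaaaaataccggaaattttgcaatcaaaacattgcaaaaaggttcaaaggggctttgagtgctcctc
Hsd11b1: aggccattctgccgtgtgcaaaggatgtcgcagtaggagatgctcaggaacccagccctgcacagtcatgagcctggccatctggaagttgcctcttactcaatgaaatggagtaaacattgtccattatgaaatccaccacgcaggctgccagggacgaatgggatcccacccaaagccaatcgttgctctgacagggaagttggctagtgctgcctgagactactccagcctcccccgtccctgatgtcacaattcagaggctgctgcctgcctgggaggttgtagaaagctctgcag
The core occurred at 232 and 210 bases before the Akr1d1 start and at 101 bases before the H6pd start. It was not in the Hsd11b1, Srd5a1, Srd5a2, Srd5a3 or Akr1c14 windows, and was at 113 bases before the start of Sult1e1. Of all 32851 mouse promoter windows of 300 bases, 16.3% held it on either strand. A second search, for TATAAA on both strands, found none in the 8 windows, against 13.6% of all windows. A match is a description of letters, not of binding. The letters stand in windows of a high member and of a low one alike.

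The 9 genes spanned more than 3 orders of magnitude, and 1 gene held most of the signal. Akr1d1 took 83.6% of the summed TPM of the set in mouse 2 and 84.6% in mouse 1. The median of the set was 10.07 TPM, beside 7.32 TPM over the 14517 nuclear protein-coding genes that passed the filter. Of the 9, 6 reached 1 TPM in both mice, beside 54.1% of all 22015 nuclear protein-coding genes. The 3 that did not were Akr1c14, Sult1e1 and Hsd11b2. At 0.1 TPM the count was 8, and at 10 TPM it was 4, beside 66.4% and 26.1% of those genes.

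**Figure D1:**
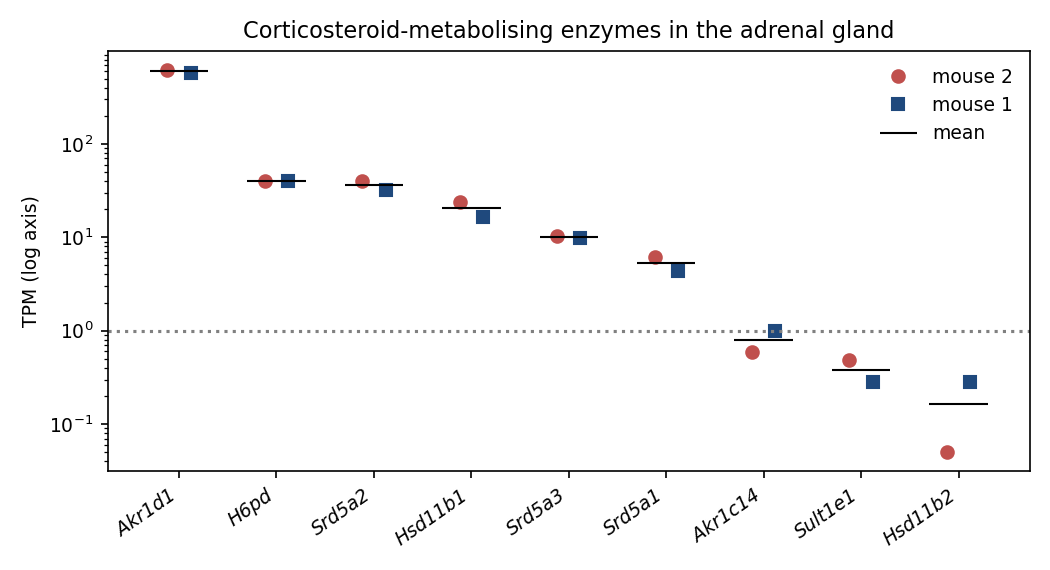
TPM of the 9 enzymes on a log axis, with mouse 2 as circles, mouse 1 as squares and the mean as a line; the dotted line is at 1 TPM. Akr1d1 stood at 621 and 577 TPM, and 3 genes lay below 1 TPM in both mice.

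Akr1d1, which reduces the double bond of 3-keto steroids and bile acid intermediates (chromosome 6, 37530173 to 37568815), stood at 621 in mouse 2 and 577 TPM in mouse 1. Its mean of 599 ± 30.7 TPM (SD, n = 2) ranked 24th among the nuclear protein-coding genes. It rested on 52248 and 59907 expected counts in mouse 2 and mouse 1. Cyp11b1 encodes the enzyme of the last step of corticosterone synthesis. Its TPM was 4.51 and 4.80 times that of Akr1d1 in mouse 2 and mouse 1.

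Akr1d1 is best known from liver, so liver genes are given beside it. Alb, the main secretory product of hepatocytes, stood at 1.89 in mouse 2 and 0.46 TPM in mouse 1. Of the 8 liver markers, 3 reached 1 TPM in both mice, Cyp2e1 at 107 TPM, Ahsg at 2.20 TPM and Apoa2 at 1.04 TPM on average. The other markers had means of at most 1.18 TPM. Summed liver marker TPM was 134 in mouse 2 and 91.05 in mouse 1, of which Cyp2e1 made up 128 and 86.8. Apart from Cyp2e1, every liver marker stayed at or below 2.43 TPM in both mice. The part of Cyp2e1-expressing cells in the Akr1d1 level was not tested.

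The enzymes that work beside Akr1d1 in hepatic bile acid synthesis were low. Of 10 such genes, 4 reached 1 TPM in both mice, with a list median of 0.59 TPM. Hsd3b7, which acts early on the sterol ring, led at 13.7 ± 1.16 TPM, followed by the racemase Amacr at 6.10 ± 1.07 TPM and the sterol hydroxylase Cyp27a1 at 3.72 ± 0.205 TPM. Cyp7a1, the rate-limiting enzyme of the classic route, had 1 expected count in mouse 2 and 5 in mouse 1.

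The processed pseudogene Gm7463 lies within an intron of Akr1d1 on the same strand. It was listed at 28.9 and 26.4 TPM in mouse 2 and mouse 1 and shared no exon base with Akr1d1.

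Akr1c14, the 3-alpha-hydroxysteroid dehydrogenase (chromosome 13, 4049011 to 4090688), was at the other end of the scale. It stood at 0.59 in mouse 2 and 0.99 TPM in mouse 1, from 50 and 101 expected counts. Exact 95% Poisson intervals of those counts were 37.1 to 65.9 and 82.3 to 123. These intervals cover counting error only and are not scaled for the depth of each library, and they do not overlap.

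Among the other Akr1c genes and the related reductase Tecr, levels were split in the same way between a few abundant genes and many near 0. Akr1cl stood at 589 ± 3.13 TPM, Akr1c18, the 20-alpha-hydroxysteroid dehydrogenase that marks the X-zone of the cortex, at 320.5 ± 26.1 TPM and Tecr, an enzyme of fatty acid elongation, at 145 ± 2.85 TPM. Of the 10 genes of that list, 4 reached 1 TPM in both mice, and the list median was 0.18 TPM. Akr1c12, Akr1c21 and Tecrl were at 0 counts in both mice. A count of 0 leaves room for 0.0932 CPM (mouse 2) and 0.0821 CPM (mouse 1) by counting error alone. A second quantification of the same reads, described below, gave Akr1c21 0.022 and 0.062 TPM in mouse 2 and mouse 1. It gave Akr1c12 0 and 0.046 TPM, and Tecrl 0 TPM in both. The deposited posterior SD of the Akr1c14 count was 0 in both mice.

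The A-ring reductases of the Srd5a family differed in level. Srd5a2, the isozyme best known from male reproductive tissue (chromosome 17, 74016955 to 74047916), stood at 40.39 in mouse 2 and 32.48 TPM in mouse 1. Srd5a1, the isozyme best known from liver and skin (chromosome 13, 69573449 to 69611442), stood at 6.20 in mouse 2 and 4.41 TPM in mouse 1. The libraries of these genes did not overlap, with Srd5a2 at 6.51 times Srd5a1 in mouse 2 and 7.37 times in mouse 1. Akr1d1, with the opposite configuration of product, stood at 15.4 and 17.8 times Srd5a2 in mouse 2 and mouse 1.

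Srd5a2 shares 144 exon bases with CT025731.1, a noncoding transcript on the same strand. That transcript had 334 expected counts in mouse 2 and 163 in mouse 1, beside 1998 and 1990 for Srd5a2, and 576 and 370 counts in the second quantification, beside 2691 and 2626 for Srd5a2. In TPM that quantification, made from the reads and a transcript index, gave Srd5a2 45.5 in mouse 2 and 36.1 TPM in mouse 1. Srd5a1 likewise shares 476 exon bases with Gm17108, with 9.93 (mouse 2) and 1.33 (mouse 1) expected counts in the first quantification and 48.4 and 52.8 in the second. The deposited posterior SD of the Srd5a2 count in the first quantification was 4.13 in mouse 2 and 3.40 in mouse 1, small beside the counts. This SD does not cover the larger difference between the quantifications.

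Srd5a3 (chromosome 5, 76140271 to 76155504) stood at 10.23 in mouse 2 and 9.90 TPM in mouse 1, between the steroid reductases. All 6 measured genes of the polyprenol and dolichol pathway list reached 1 TPM in both mice, with a median of 14.8 TPM. Dpm1, a subunit of dolichol phosphate mannose synthase, stood at 37.4 ± 0.332 TPM. Dhdds and Nus1, which together form the cis-prenyltransferase that makes the polyprenol chain, stood at 16.9 ± 4.12 TPM and 16.6 ± 1.05 TPM. Dhrsx was not found under that symbol.

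Of the pair that interconverts active and inert glucocorticoid, the activating enzyme was the higher. Hsd11b1 (chromosome 1, 193221634 to 193264075) stood at 24.07 in mouse 2 and 16.67 TPM in mouse 1, from 1008 and 885 expected counts. Hsd11b2 (chromosome 8, 105518755 to 105523988) stood at 0.05 in mouse 2 and 0.28 TPM in mouse 1. The Hsd11b2 values rested on 3 and 20 expected counts, with exact 95% Poisson intervals of 0.619 to 8.77 and 12.2 to 30.9. The values of these genes did not overlap in any library, but the Hsd11b2 level is too close to 0 for a ratio of the isozymes to be precise. That ratio was 481 in mouse 2 and 59.5 in mouse 1. Cyp11b1 stood at 116 and 166 times Hsd11b1 in mouse 2 and mouse 1.

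Kidney tubule genes are given beside Hsd11b2, since the gland lies on the kidney. None of the 8 kidney markers, mostly of tubules, reached 1 TPM in both mice. Their summed TPM in the first quantification was 0.42 in mouse 2 and 0.73 in mouse 1, with means from 0 to 0.28 TPM, led by Calb1 and Aqp2. The second quantification gave Calb1 0.81 and 0.77 TPM in mouse 2 and mouse 1, against 0.17 and 0.39 in the first. It gave Slc12a3 0.31 and 0.24 TPM, against 0.03 and 0, and Aqp2 0.14 and 0.35 TPM, against 0.14 and 0.30. Umod, Slc12a1 and Slc34a1 had 0 counts in both mice. Aqp2, the water channel of the collecting duct, had 6 counts in mouse 2 and 16 in mouse 1, a log2 ratio of -1.06 that did not pass the exact binomial test described below (adjusted p = 0.23). Its part in the Hsd11b2 counts was not tested.

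H6pd, the source of NADPH for Hsd11b1 (chromosome 4, 149979475 to 150009023), stood at 40.04 in mouse 2 and 40.37 TPM in mouse 1. It was at 1.66 times Hsd11b1 in mouse 2 and 2.42 times in mouse 1. The H6pd values lay between the 2 Srd5a2 values of 40.39 and 32.48 TPM, so these neighbours in the order could not be separated. In the second quantification their means were 40.5 TPM for H6pd and 40.8 TPM for Srd5a2, which turns their order. Sult1e1 and Hsd11b2 could not be separated either, since both stood at 0.28 TPM in mouse 1. For all other neighbours in the order by mean TPM, the values of the mice did not overlap.

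The cytosolic counterparts of H6pd were also present. Of 8 genes of glucose 6-phosphate transport and NADPH supply, 7 reached 1 TPM in both mice, with a median of 27.8 TPM. Pgd, the second NADPH-forming dehydrogenase of the pentose phosphate pathway, stood at 79.3 ± 1.53 TPM, and G6pdx, its first enzyme, at 59.1 ± 0.806 TPM. G6pc3, a glucose 6-phosphatase of the endoplasmic reticulum, stood at 46.0 ± 3.13 TPM. Slc37a4, which carries glucose 6-phosphate into the endoplasmic reticulum where H6pd uses it, stood at 6.43 ± 0.0212 TPM.

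Receptors for the steroids that these enzymes handle were measured at low to moderate levels. The glucocorticoid receptor gene Nr3c1 stood at 8.51 ± 1.22 TPM and the mineralocorticoid receptor gene Nr3c2 at 5.20 ± 0.403 TPM. Of the 8 genes of the receptor, chaperone and carrier list, 7 reached 1 TPM in both mice, with a median of 36.2 TPM. The list was led by the chaperones Hsp90ab1 at 609 ± 21.4 TPM and Hsp90aa1 at 178 ± 2.09 TPM and the co-chaperone Fkbp4 at 91.8 ± 3.46 TPM. Serpina6, the plasma corticosteroid carrier made in liver, had 4 counts in mouse 2 and 10 in mouse 1.

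Sult1e1, the estrogen sulfotransferase (chromosome 5, 87575969 to 87591594), stood at 0.48 in mouse 2 and 0.28 TPM in mouse 1. It rested on 18 and 13 expected counts, with exact 95% Poisson intervals of 10.7 to 28.4 and 6.92 to 22.2. These intervals are likewise not scaled for depth, and they overlap. Of 13 measured genes of sulfonation, 6 reached 1 TPM in both mice, with a median of 0.28 TPM. The highest were Papss1, which makes the sulfate donor, at 19.0 ± 0.601 TPM, Slc35b2, which carries that donor into the Golgi, at 18.3 ± 1.01 TPM and the phenol sulfotransferase Sult1a1 at 13.7 ± 2.74 TPM. Sult1b1 and Sult1c1 had 0 counts in both mice in the first quantification, and Sts was not found under that symbol. Markers of ovary and placenta were near 0, with 0 of 8 reaching 1 TPM, means from 0 to 0.59 TPM led by Foxl2 and Amh, and summed TPM of 0.99 in mouse 2 and 1.64 in mouse 1.

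**Figure D2:**
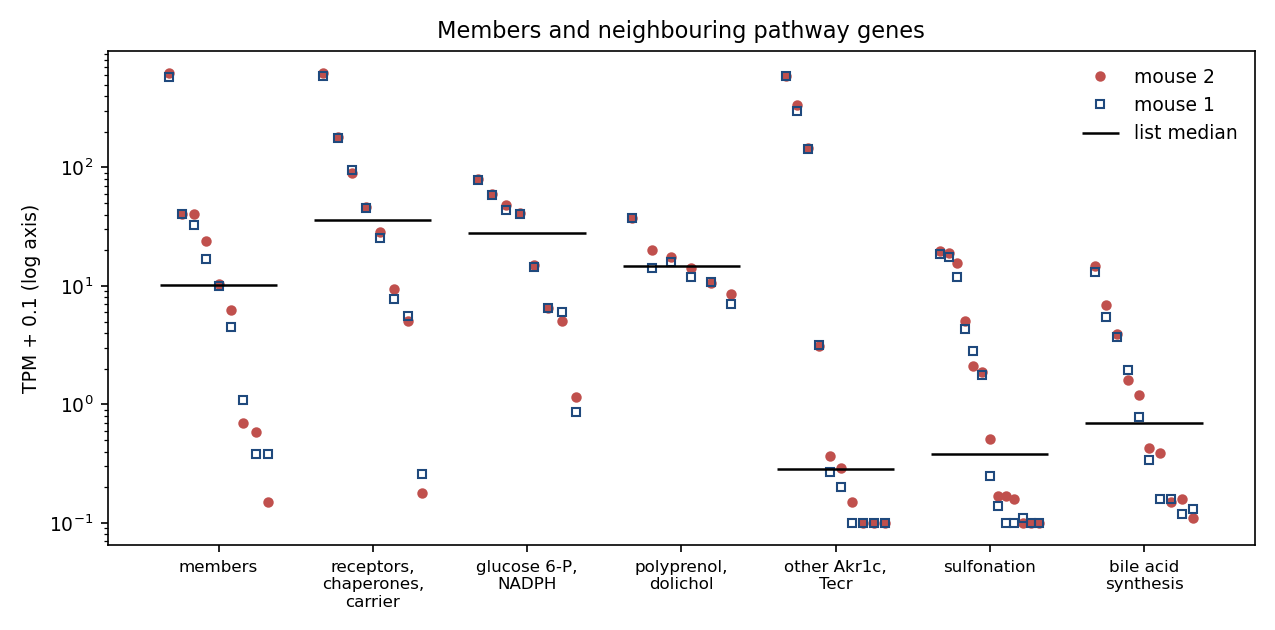
TPM plus 0.1 on a log axis for the 9 members and the 6 neighbouring gene lists, with genes ordered by mean within each list, mouse 2 as filled circles, mouse 1 as open squares and a line at the list median. Medians lay at 10.07 TPM for the members, from 14.8 to 36.2 TPM for the dolichol, NADPH and receptor lists, and from 0.18 to 0.59 TPM for the Akr1c, sulfonation and bile acid lists.

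The mice were then set against each other. The log2 ratio of mouse 2 to mouse 1 was taken from expected counts scaled by TMM, which balances the libraries on most genes. With 1 group there was no contrast between conditions, so an exact two-sided binomial test on the reads compares these 2 libraries only. It was adjusted by Benjamini-Hochberg over all 17666 genes. TPM is scaled to a fixed sum in each library, so TPM and this ratio need not share a direction. Akr1d1 TPM was higher in mouse 2, at 621 against 577 in mouse 1, while its count ratio lay below 0. Its FPKM, given per length but without the fixed sum, was lower in mouse 2, at 630 against 640 in mouse 1. Every difference in TPM between the mice carries this scaling, and why it differs between the libraries was not tested. Of the 9 members, 7 passed the binomial test at an adjusted p of at most 0.05, beside 21.3% of all genes tested. Abundant genes pass it at small ratios: it was passed by 31.8% of the 8212 genes averaging 500 counts or more and by 8.35% of the 3702 genes averaging under 50.

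Hsd11b1, Srd5a1 and Srd5a2 were higher in mouse 2. Hsd11b1 had a log2 ratio of 0.32 (95% counting interval 0.19 to 0.45, adjusted p = 2.0e-05 by the exact binomial test). Srd5a1 had a ratio of 0.32 (0.13 to 0.50, adjusted p = 0.0053 by the exact test) and Srd5a2 of 0.14 (0.050 to 0.23, adjusted p = 0.014 by the exact test). These were the 3 members called higher, beside 10.4% of all genes. A ratio of at least 0.3 in either direction was reached by 24.0% of all genes tested.

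Adipocytes are known to express Hsd11b1, so fat cell genes are given beside it. Of all 17666 genes tested, 8793 had a ratio above 0 and 10.4% were called higher. All 8 adipocyte markers lay above 0, with a median log2 ratio of 0.68, and 7 of them passed the exact binomial test. Their summed TPM was 2475 in mouse 2 and 1471 in mouse 1, led by Cfd at 644 TPM and Fabp4 at 448 TPM on average, and Lep was the lowest at 1.22 TPM. In the same libraries the median ratios were -0.08 for cortex, -0.22 for medulla, -0.07 for capsule and fibroblast, 0.07 for macrophage, 0.06 for endothelial and 0.42 for liver markers. The part of fat tissue in the Hsd11b1 difference was not tested.

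The other members past the test were lower in mouse 2. Akr1d1 had a ratio of -0.063 (-0.080 to -0.046, adjusted p = 1.2e-11 by the exact binomial test) and H6pd of -0.072 (-0.12 to -0.019, adjusted p = 0.036 by the same exact test). Under total count scaling these ratios were -0.014 and -0.023 and no longer passed, so both calls rest on the scaling. Akr1c14 had a ratio of -0.86 (-1.40 to -0.38, adjusted p = 0.0028 by the exact test). Hsd11b2, at 3 and 20 counts, had a ratio of -2.04 (-5.00 to -0.85, adjusted p = 0.0051 by the exact test). It had 6 and 20 counts in the second quantification, where the ratio was -1.34 and did not pass. These 4 were called lower beside 11.0% of all genes.

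Srd5a3 and Sult1e1 did not pass the test. Their ratios were -0.06 (-0.24 to 0.11) and 0.53 (-0.51 to 1.75), and for Sult1e1 the counts allow changes in either direction. Of the 9 members, 0 were at least 2-fold higher in mouse 2, beside 1.15% of all genes tested. At least 2-fold lower was 1 member, beside 1.81%. This was Hsd11b2, which passed the count filter only through mouse 1. Genes 2-fold apart in either direction made up 2.96% of all genes tested and 10.8% of those with a mean under 50 counts. The median ratio of the set was -0.06, beside -0.0011 over all genes tested.

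**Figure D3:**
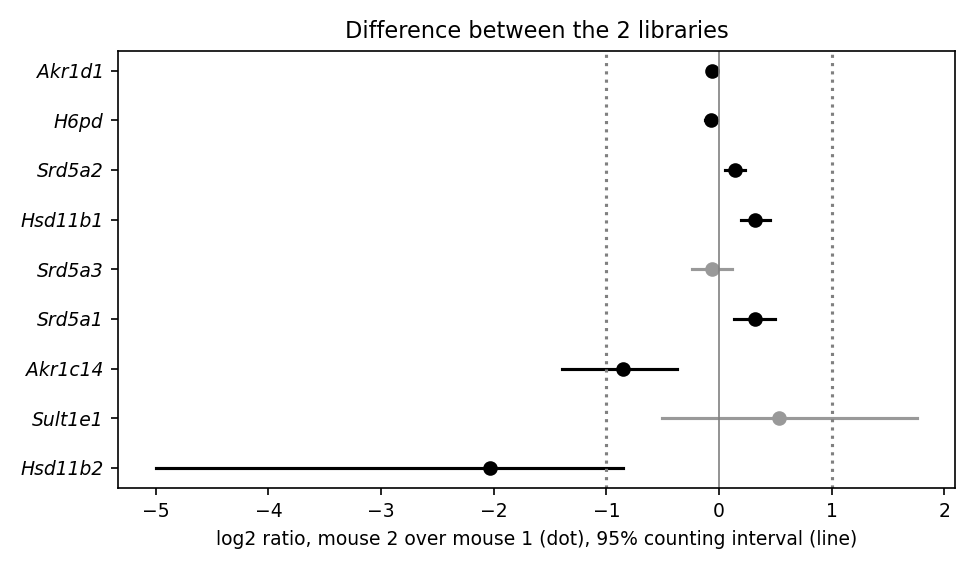
Log2 ratio of mouse 2 over mouse 1 for each member, with its 95% Clopper-Pearson counting interval as a line; black marks an adjusted p of at most 0.05 in the exact binomial test, grey the others, and dotted lines mark 2-fold. Intervals were narrowest for Akr1d1 (-0.080 to -0.046) and widest for Hsd11b2 (-5.00 to -0.85).

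The neighbouring lists had median ratios near 0. The median ratio was -0.12 for both the receptor and the NADPH list, -0.07 for the polyprenol and dolichol list, -0.08 for the Akr1c list, -0.06 for the sulfonation list and -0.02 for the bile acid list. None of their tested genes passed the binomial test at 2-fold or more. Of 7 tested receptor, chaperone and carrier genes, 1 was called higher, Nr3c1 at 0.22, and 4 lower, among them Fkbp4 at -0.23. Of 8 genes of glucose 6-phosphate transport and NADPH supply, 0 were called higher and 4 lower. The 4 were Slc37a1 at -0.38, G6pdx at -0.15, Pgd at -0.13 and G6pc3 at -0.12. These counts stand beside 10.4% called higher and 11.0% called lower over all genes tested, and beside the 31.8% called among genes averaging 500 counts or more. In the dolichol list Dpm1 was called lower at -0.25, in the Akr1c list Akr1cl at -0.17 and Tecr at -0.12, and in the bile acid list the sterol hydroxylase Cyp7b1 at -0.48. Those lists had 0 genes called higher, and the sulfonation list had 0 calls, with Sult2b1 at a ratio of 1.03 from 15 and 7 counts not passing. Across the kidney list 2 genes were tested and across the ovary and placenta list 3, with median ratios of -0.38 and -0.62. In the ovary and placenta list 1 gene was called, Foxl2, lower at -1.55 from 33 counts in mouse 2 and 110 in mouse 1. Among the liver markers 2 were called higher and 0 lower. They were Alb at 1.73, from 113 counts in mouse 2 and 36 in mouse 1, and Cyp2e1 at 0.38.

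Transcript tables were used to see which start and form of each gene was measured. In these tables every transcript has a deposited percent, its part of the TPM of the gene. Of the 9 genes, 3 had a single annotated transcript, Hsd11b2, Srd5a2 and Sult1e1. Akr1d1-201, the coding form, took 98.4% in mouse 2 and 97.8% in mouse 1. The second quantification placed it at 98.03% and 98.3%.

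Hsd11b1 was led by a transcript from a distal start. Hsd11b1-205 begins at position 193264075 of chromosome 1, 21.4 kb upstream of the start of Hsd11b1-201, and its first exon holds 128 bases found in no other transcript of the gene. It took 89.4% of the gene in mouse 2 and 78.5% in mouse 1, with 888 and 669 expected counts. Hsd11b1-201, whose first exon holds the promoter window shown above, took 9.33% in mouse 2 and 18.7% in mouse 1, with 112 and 193 counts. Both have a coding length of 876 bases from the same start codon at position 193242262, so they differ in the leader and not in the coding sequence's start. Mouse 2 thus held more counts of Hsd11b1-205 and fewer of Hsd11b1-201 than mouse 1, a difference that was not tested.

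The second quantification kept Hsd11b1-205 in the lead at a smaller share. It gave 57.0% in mouse 2 and 53.02% in mouse 1. There Hsd11b1-202 took 19.9% and 19.1% and Hsd11b1-203 took 14.03% and 10.1%, while in the first quantification these forms took at most 1.16% and 2.54%. Hsd11b1-201 was at 9.04% and 17.7%, close to the first quantification, and again the smaller share in mouse 2. The gene total differed little between the quantifications, at 24.9 in mouse 2 and 17.2 TPM in mouse 1 in the second.

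H6pd was divided between H6pd-202 and H6pd-201, which begin 5.89 kb apart. H6pd-202 took 67.8% in mouse 2 and 52.5% in mouse 1, and H6pd-201 took 22.5% and 29.5%. The second quantification placed H6pd-202 at 49.01% and 44.7% and H6pd-201 at 28.6% and 26.4%. The coding length is 2367 bases for H6pd-202 and 2391 bases for H6pd-201, whose coding start lies in its own first exon. H6pd-204, a short form, took 8.72% and 14.8% in the first quantification and 19.01% and 23.2% in the second.

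**Figure D4:**
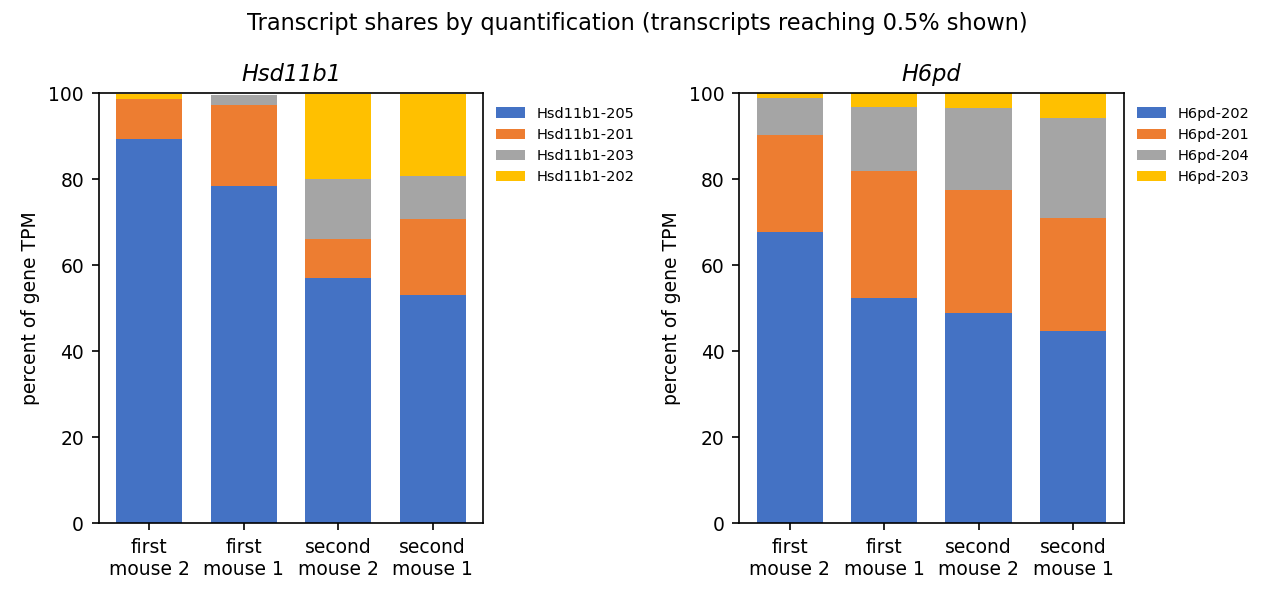
Percent of the gene's TPM held by each transcript of Hsd11b1 and H6pd, in stacked bars for the first and the second quantification of mouse 2 and mouse 1. Hsd11b1-205 led in all 4 bars, from 53.02% to 89.4%, and H6pd-202 in all 4, from 44.7% to 67.8%.

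The remaining genes had a leading form of less certain share. Srd5a1-202 took 100% in both mice, and 91.1% in mouse 2 and 80.1% in mouse 1 in the second quantification. Srd5a3-201 took 75.0% in mouse 2 and 73.7% in mouse 1, and 62.5% and 79.8% in the second. For Akr1c14 the quantifications disagreed on the lead. Akr1c14-201 took 64.6% in mouse 2 and 78.5% in mouse 1 in the first, against 45.6% and 37.4% in the second, where Akr1c14-202 led. Akr1c14-201 has no base that is absent from the gene's other transcripts.

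Gene totals were then compared between the quantifications. Of the 6 members averaging 1 TPM or more, 0 were 2-fold apart between them, beside 4.84% of 13524 genes, a share at which 6 genes say little. The log2 of the second over the first, on TPM plus 0.1, ran for these 6 from -0.29 for Srd5a3 in mouse 1 to 0.17 for Srd5a2 in mouse 2. The aldosterone synthase gene Cyp11b2, a cortex marker, stood at 400.3 and 430 TPM in the second quantification of mouse 2 and mouse 1, and at 161 and 183 TPM in the first. Both start from the same reads, so they are not replicates. The second gave Akr1d1 592 in mouse 2 and 550.5 TPM in mouse 1.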

How the data were processed

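Both libraries of the 1 group held total RNA of adrenal glands. Per the labels, ribosomal RNA was reduced, ERCC spike-in RNA added and a directional library kit used. Per the text deposited with the tables, they use mm10 with GENCODE annotation M21, and the first quantification came from transcriptome alignments. The sources used here do not name the aligner or the quantifiers. Per the file headers, the deposited gene and transcript tables hold expected counts (estimated, and so not always whole), TPM over all rows, spike-ins included, FPKM, and a percent per transcript within its gene. A further deposited table, quantified from reads against a transcript index, has estimated counts and TPM per transcript, here summed to genes. The mm10 reference is of another strain than CAST, and what this does to CAST reads was not measured.

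Members and lists were chosen with earlier results of these data known. ERCC rows held 0.526% of counts in mouse 2 and 0.502% in mouse 1, and stayed out of library sizes with the other rows that name no gene. Ratios used TMM in edgeR 4.0.16 (R 4.3.3), a prior count of 2 and genes averaging 10 counts or more. Counts were rounded for the exact binomial test and the 95% Clopper-Pearson intervals, which cover counting error only. The quantifications were compared on log2(TPM + 0.1). Functions were tested on simulated data. Alternatives were scaling by total count, by ERCC counts or by DESeq2 1.42.0 size factors, other count and TPM filters, another prior count or pseudocount, FPKM, TPM rescaled to nuclear protein-coding genes, the second quantification, and leaving out either mouse. Other steps used Python 3.11.15, scipy 1.17.1 and biopython 1.88. Named genes were the 9 members, the 3 of highest mean TPM of each of 6 pathway lists and the 2 of each of 9 marker lists (3 for cortex and medulla). Any further gene was chosen with its values known. No genes of similar pattern were sought, since 2 libraries give no pattern.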

Additional observations from a re-analysis of the deposited data

How the results depend on the processing

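No alternative was added after seeing the data, and no paired analysis was possible because there is 1 group. Total count scaling moved the median ratio of all genes to 0.05. There the ratios of Akr1d1 and H6pd were -0.014 and -0.023 and no longer passed the exact binomial test. In the second quantification those of H6pd and Hsd11b2 were -0.049 and -1.34 and did not pass. All other member ratios kept direction and call under the scalings, filters, prior count and second quantification that could give them. No member ratio changed sign. With 2 libraries, leaving out either moves a mean by less than 1 SD by construction. At a mean of at least 100 counts, 0 members were 2-fold apart, since Hsd11b2 was left out.

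Rescaled to nuclear protein-coding genes, means were 1940 TPM for Akr1d1, 130.5 for H6pd, 118 for Srd5a2, 65.5 for Hsd11b1, 32.6 for Srd5a3, 17.1 for Srd5a1, 2.59 for Akr1c14, 1.22 for Sult1e1 and 0.553 for Hsd11b2, by construction of the scale, and 7 members reached 1 TPM there. In FPKM, Akr1d1 was 635, H6pd 42.7 and Srd5a3 10.7. The second quantification gave H6pd 40.5 and Srd5a3 9.07 TPM, with list medians of 40.8 TPM for receptors and 26.4 TPM for NADPH supply. It gave mean shares of 41.5% for Akr1c14-201, 46.9% for H6pd-202, 55.0% for Hsd11b1-205, 85.6% for Srd5a1-202 and 71.2% for Srd5a3-201, and the cause was not tested. The receptor list's median ratio was -0.072 under total count scaling and -0.083 in the second quantification, and that of the NADPH list -0.070 and -0.11. Genes 2-fold higher numbered 1346 without a count filter and 28 at 100 counts, and those lower 1310 and 37, as more or fewer genes were tested. At a mean of at least 10 TPM, 283 genes were 2-fold apart between the quantifications. Depth limits Hsd11b2, Sult1e1 and Akr1c14 most.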
